A study of Mus musculus with 270 samples.

Results

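The lungs of male C57BL/6J mice aged 20 months (M) were compared with the lungs of mice aged 14 M, a step from mature adulthood into old age. The comparison held 7 libraries at 20 M and 9 at 14 M, together 16 of the 45 lung libraries and of the 270 libraries of the series. Members were chosen by the age and organ in the sample labels, and 21257 of the 51810 genes in the lung table were tested, a gene being tested where 5 or more of the 45 lung libraries held 10 or more normalized counts of it. The series profiled lung, kidney, liver, heart, skeletal muscle and testis of the same 45 mice at 6 ages by bulk RNA sequencing, to follow gene expression over the lifespan. All mice came from a single cohort of an inbred strain and of 1 sex, and the labels name no treatment or genetic change in either age group. Each library came from the powdered tissue of 1 mouse, so the 2 ages are different animals.

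The lung carries gas across a thin wall of type 1 alveolar epithelium and capillary endothelium. Type 2 cells make surfactant, club and ciliated cells line the airways, and resident macrophages clear particles from the air spaces. In old mice the lung is known to gather lymphocytes and plasma cells, and its matrix and its immune tone change.

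Lung identity was seen in every library. Scgb1a1, the main secretory protein of club cells, had 27238, 60551 and 117862 normalized counts (lowest, median and highest library) at 14 M and 40628, 89514 and 118570 at 20 M. Sftpc, the type 2 cell surfactant protein, had 3065, 5625 and 22796 at 14 M and 1857, 4611 and 11692 at 20 M. Both genes were abundant in all 16 libraries, and their age groups overlapped widely.

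Several libraries stood apart. Reads on genes ranged from 3631239 to 10939481 at 14 M and from 2356992 to 8888056 at 20 M. In 1 library of each age (14M c3840 and 20M c1315) 25930 and 26588 genes were above 0, against 14844 to 19396 in the other 14. In 6 libraries, 3 of each age, the summed hepatocyte markers reached 15985 to 37453 normalized counts against 1611 to 6915 in the other 10, and the same 6 were highest in kidney tubule markers (7451 to 17076 against 1319 to 6745) and in brain markers (11165 to 25316 against 2446 to 10271). All 6 carried the suffix b in their column names, as 6 of 9 libraries at 14 M and 4 of 7 at 20 M did. Of all 45 lung libraries 14 carried it, so it was rarer at the other ages. Comparisons with other ages are thus partly confounded with the suffix. The labels do not say what the suffix means, so it is treated as a possible batch. The library 20M c3580 held 72008 cardiomyocyte marker counts against 1841 to 6742 in the other 15. With 2 components of the foreign-tissue markers as covariates limma called 12 genes, and with the suffix as a batch term 0. Values without these libraries, and within each suffix class, are given where they change a result.

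**Figure D1:**
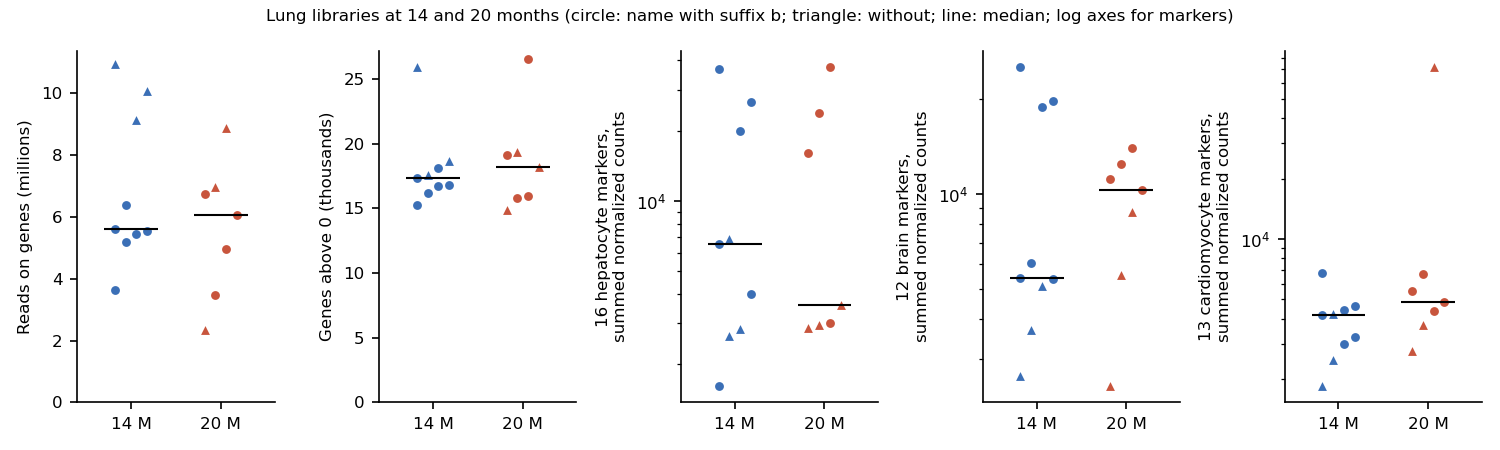
Each point is 1 lung library at 14 M (blue) or 20 M (red), with circles for names that carry the suffix b, triangles for the rest and a line at the median. The panels plot reads and genes above 0 on linear axes and summed marker counts on log axes. In the gene panel 2 libraries exceed 25000, 6 circles lie at 15985 to 37453 for hepatocyte markers, and 1 triangle lies at 72008 for cardiomyocyte markers.

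No gene passed the threshold between 14 and 20 M. limma called 0 of 21257 genes (0%) at an adjusted p of at most 0.05, and the smallest adjusted p was 0.1. At an unadjusted p of at most 0.05 it listed 1403 genes (6.6%), of which 658 (3.1% of those tested) were higher and 745 (3.5%) lower at 20 M. On the recovered reads, edgeR called 1 gene (0.0047%) and listed 1243 (5.85%) at an unadjusted p of at most 0.05, and DESeq2 called 20 (0.0941%) and listed 1495 (7.04%), split as 851 higher and 644 lower. The median log2 change over all tested genes was 0.08 and 56.1% lay above 0. The median half-width of a gene's 95% interval was 1.49 on the log2 scale. All following changes are differences in log2(normalized count + 1), 20 M minus 14 M, with standard errors, and unadjusted p values come from limma. The percentages above are the background for every count of list members over all libraries. Counts in other sets of libraries are read against all genes listed as higher or lower in the same set, given below.

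The split between higher and lower genes moved with the libraries. Of the 745 lower genes, 605 (81.2%) had their lowest 20 M values in the 3 shallowest libraries of that age (2356992 to 4977185 reads against 6072887 to 8888056 in the other 4), whereas this held for 49.8% of all tested genes. Without the 4 libraries under 5000000 reads, 883 genes were higher and 193 lower, again with 0 calls, and the median change of all genes was 0.28. Within the suffix b libraries 1159 genes were higher and 265 lower, and within the libraries without it 346 were higher and 1262 lower, with 0 calls in both. The median change of all genes was 0.32 within and -0.32 without the suffix b libraries, and list medians in these classes are read against it. The balance of higher and lower genes was therefore opposite in the 2 suffix classes. The class without the suffix held only 3 libraries of each age, 14M c3840 and 20M c3580 among them. Its reads were 9127950 to 10939481 at 14 M and 2356992 to 8888056 at 20 M. Age and depth cannot be told apart in that class, here and in all values given without the suffix b libraries.

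Zmynd12, which encodes a zinc finger MYND domain protein (chr4:119422814-119467444, GRCm38), had the smallest p. It had 96.3, 136 and 208 normalized counts at 14 M and 250, 280 and 902 at 20 M. All 7 libraries at 20 M lay above all 9 at 14 M, the only gene of which this was true (0.0047% of the genes tested), and 0 genes showed the reverse. The log2 change was 1.48 ± 0.3 (95% interval 0.89 to 2.08), with a limma p of 7.4e-06 and an adjusted p of 0.1. It was 1.7 within the suffix b libraries, 1.19 without them and 1.11 without the 4 shallow libraries. edgeR gave an adjusted p of 0.029 and DESeq2 7.7e-05. Zmynd12 was not higher with each step of age, since its median was 201 at 3 M and 179 at 26 M.

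Eps8 encodes an actin-capping substrate of the epidermal growth factor receptor (chr6:137477245-137654876). Its counts were 229, 321 and 509 at 14 M and 507, 626 and 808 at 20 M, and 6 of 7 libraries at 20 M lay above all at 14 M. The change was 0.88 ± 0.21 (0.45 to 1.3), with a limma adjusted p of 0.25 and a DESeq2 adjusted p of 0.02. It was 0.86 within the suffix b libraries, 0.91 without them and 0.91 without the shallow ones. The median of Eps8 at 14 M was also under those of 3, 5, 8 and 26 M (490, 491, 505 and 488). Cdc42ep2, an effector of the small GTPase Cdc42 (chr19:5915636-5924816), had 0, 5.32 and 78.3 counts at 14 M and 26.3, 52.5 and 156 at 20 M. Its change of 2.78 ± 0.67 was 4.16 within the suffix b libraries and 0.29 without them.

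The other 7 of the 10 leading genes were lower at 20 M. Dact3, a modulator of Wnt signaling (chr7:16875317-16887462), had 186, 331 and 600 counts at 14 M and 3.09, 142 and 209 at 20 M, and 6 of 7 libraries at 20 M lay below all at 14 M. Its change was -2.4 ± 0.49 (-3.38 to -1.41), with a limma adjusted p of 0.1 and a DESeq2 adjusted p of 0.028. Smpd4, a neutral sphingomyelinase (chr16:17619354-17644828), had 39.9, 139 and 200 counts at 14 M and 0, 39 and 93.3 at 20 M, a change of -2.97 ± 0.62 with a limma adjusted p of 0.11. Cnnm3, of a family of magnesium transport mediators (chr1:36511867-36528237), had 66.1, 153 and 274 counts at 14 M and 1.63, 46.3 and 105 at 20 M, a change of -2.21 ± 0.49. In both Smpd4 and Cnnm3, 4 of 7 libraries at 20 M lay below all at 14 M. Elmod3 (-2.94), the phosphatase Ptp4a3 (-1.91), the lipid kinase Pip5k1c (-1.94) and Pcnx3 (-2.29) had limma adjusted p values of 0.24 to 0.25.

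These 7 genes moved with the libraries that entered the fit. Without the 4 shallow libraries the change was -1.34 in Dact3, -0.96 in Smpd4, -1.17 in Cnnm3, -0.55 in Elmod3, -1.04 in Ptp4a3, -0.61 in Pip5k1c and -1.19 in Pcnx3. Each stayed below 0 and was smaller in size than over all libraries. The 4 shallow libraries are also among the 7 rich in hepatocyte or cardiomyocyte markers, so depth and marker content cannot be told apart in that setting. Without 20M c1315 the changes were larger and limma called all 7, among them Dact3 (-2.62, adjusted p of 0.028), Smpd4 (-3.41, 0.025), Cnnm3 (-2.5, 0.028) and Elmod3 (-3.43, 0.028). With the foreign-tissue components as covariates limma called these 4 as well, at adjusted p values of 0.013 to 0.026.

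**Figure D2:**
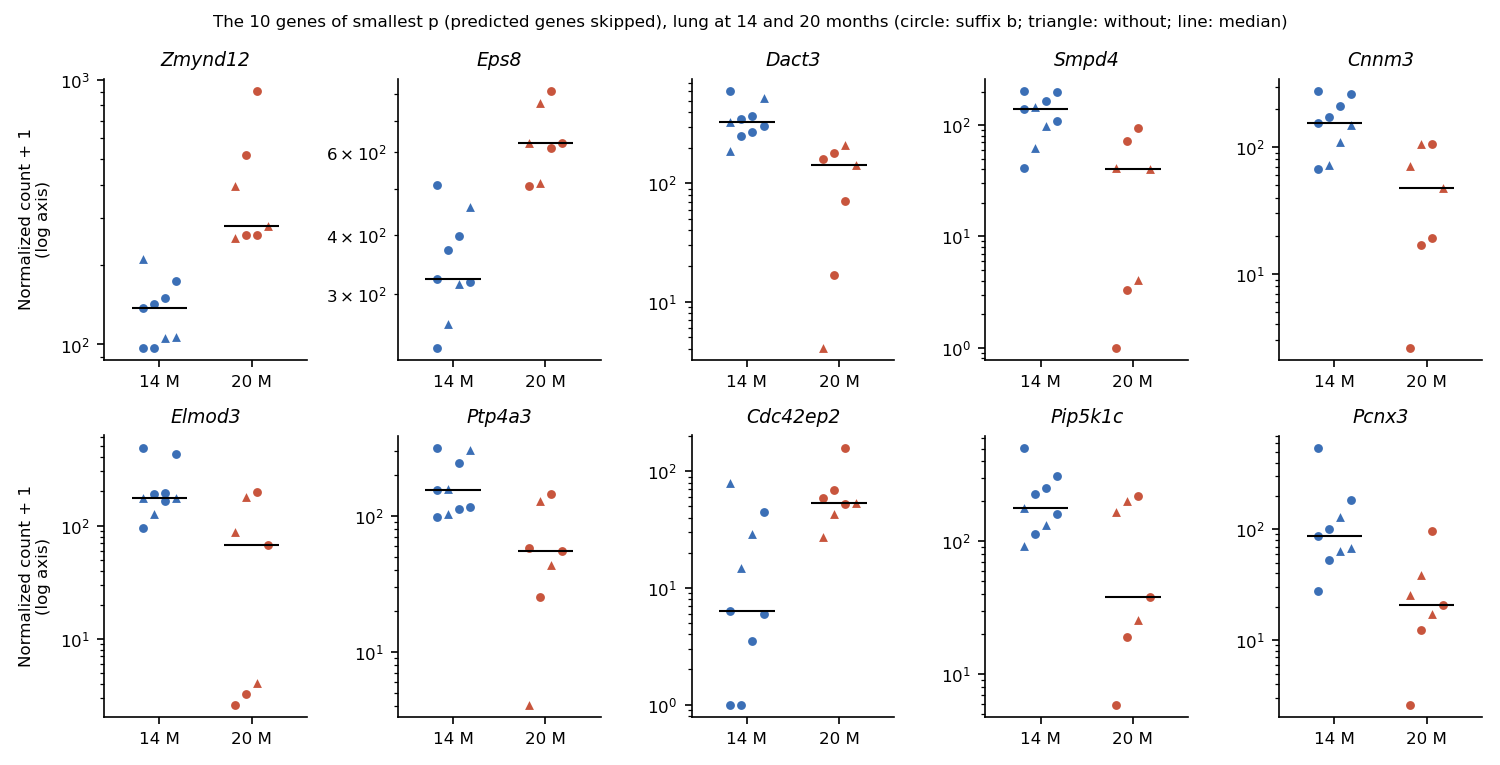
Normalized count plus 1 (log axis) of the 10 genes of smallest p in each lung library at 14 M (blue) and 20 M (red), circles with and triangles without the suffix b, line at the median. In the Zmynd12 panel the lowest red point (250) lies above the highest blue point (208), and in the 7 panels of genes lower at 20 M the lowest red points lie under the lowest blue ones.

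For several of the genes that DESeq2 called, the highest values came from libraries that stood apart. Olfr1272 was at 0 in the median library of both ages, with highest values of 26.8 (14M c3840) and 57.6 (20M c1315). Gm47923 and Gm6667 reached 79.4 and 129 in 20M c1315, the library with the most genes above 0, and without it their limma changes were -0.03 and -0.37. Myh6 and Tnni3, the cardiac myosin heavy chain and cardiac troponin I, reached 21552 and 11705 in 20M c3580, the library rich in cardiomyocyte markers. The medians of Myh6 were 842 at 14 M and 1013 at 20 M, and those of Tnni3 437 and 416. Without the 4 shallow libraries, which include 20M c3580, their changes were 0.2 and -0.16. Sh2b2, an adaptor of receptor tyrosine kinases, had 1.33, 19.9 and 67.3 counts at 14 M and 20.8, 86.3 and 961 at 20 M, with 5 of 7 libraries above all at 14 M. Its limma change was 2.95 ± 0.79, and 3.52 within and 2.3 without the suffix b libraries. Dio2, the deiodinase that activates thyroid hormone, had 1.56, 53.7 and 300 counts at 14 M and 0, 2.65 and 41.7 at 20 M, a change of -3.24 ± 0.87 with a limma p of 0.00052. Its change was -3.15 within and -3.11 without the suffix b libraries, and -2.2 without the shallow ones.

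Among genes with a mean of at least 50 normalized counts, the largest positive changes with an unadjusted p of at most 0.05 included Ighg1 (3.46 ± 1.19), Fxyd5 (2.82 ± 0.78), Cdca7l (2.71 ± 0.86), Mep1b (2.68 ± 1.08), AW112010 (2.56 ± 0.67), Styk1 (2.48 ± 0.92) and Cxcl9 (2.48 ± 0.98). Mep1b was highest in 14M c755 (171) and 20M c2140 (270), both rich in hepatocyte and kidney tubule markers. Its edgeR p was 0.19 and its DESeq2 p 0.15. AW112010, a transcript of immune cells induced in inflammation, had 0, 22.7 and 67 counts at 14 M and 18.5, 81 and 238 at 20 M, with 4 of 7 libraries above all at 14 M. Fxyd5, a modulator of the sodium pump, had 0, 45.2 and 140 at 14 M and 63.6, 162 and 292 at 20 M. Both changes were larger within the suffix b libraries (AW112010 3.53, Fxyd5 4.03) than without them (0.69 and 0.35). The largest negative changes included, beside Smpd4, Elmod3 and Dio2, the lens crystallin gene Crybb3 (-2.82 ± 0.7), Wdcp (-2.62 ± 0.76), the chromatin remodeler Chd5 (-2.6 ± 0.71) and the stress response gene Ier3 (-2.54 ± 0.88). Without the shallow libraries these 4 lay between -1.47 (Crybb3) and -0.68 (Wdcp).

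Markers of the epithelium, endothelium and stroma held few listed genes. Changes lay above 0 in 2 of 12 type 2, 3 of 10 type 1, 11 of 12 club and 8 of 10 ciliated cell markers, against 56.1% of all genes. The club and ciliated medians were 0.32 and 0.21, and -0.07 and 0.18 without the shallow libraries (0.28 for all genes). Of 12 tested type 2 cell markers 0 were higher and 0 lower at an unadjusted p of at most 0.05, with a median change of -0.21 beside 0.08 for all genes. Of 10 type 1 cell markers 1 was lower, Akap5, which anchors protein kinase A, with medians of 969 counts at 14 M and 493 at 20 M and highest values of 1752 and 1242. In Akap5 6 of 7 libraries at 20 M lay below all at 14 M, and the change was -0.95 ± 0.34 (limma p of 0.0079). Ager, the type 1 cell receptor for advanced glycation products, had medians of 1269 and 794 (-0.64 ± 0.49). Of 12 club cell markers 1 was higher, the antimicrobial Ltf, also a neutrophil granule gene (1.18 ± 0.56). Of 10 ciliated cell markers 0 were listed, and Foxj1, the regulator of motile cilia, had a change of 1.17 ± 0.75, and of -0.64 without the 7 marker-rich libraries. The 10 general endothelial markers had a median of -0.25 with none listed, among them Cdh5, the adherens junction cadherin of endothelium, at -0.53 ± 0.35.

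Aerocyte markers, genes of the capillary cells that face the gas, had the lowest cell type median, -0.65 over 6 genes, of which 1 was listed. That gene was Car4, a carbonic anhydrase on the capillary surface, with 116, 177 and 282 counts at 14 M and 3.09, 115 and 357 at 20 M (-1.44 ± 0.54). The 20 M libraries held both the lowest and the highest value of Car4. The aerocyte median was 0.03 without the shallow libraries (0.28 for all genes), -0.45 within the suffix b libraries (0.32) and -0.97 without them (-0.32). Flt4, the lymphatic receptor for vascular endothelial growth factor C, had a change of -1.16 ± 0.47, and of -0.24 without the shallow libraries. Of 11 fibroblast markers 0 were listed (median -0.03), with Dcn at 0.68 ± 0.38 and Col1a1 at -0.5 ± 0.44. In bulk tissue, fewer cells of a type and less RNA per cell cannot be told apart.

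Myeloid markers differed in both directions. Neutrophil markers had the highest cell type median, 1.11, with all 7 tested members above 0. The 2 listed as higher were S100a9 and Ltf, the latter also the listed club cell marker. S100a9, a subunit of the calprotectin dimer of neutrophils (chr3:90692632-90695721), had 124, 507 and 1280 counts at 14 M and 309, 2563 and 3240 at 20 M. In S100a9 4 of 7 libraries at 20 M lay above all at 14 M and the other 3 lay within that range, a change of 1.67 ± 0.55 (limma p of 0.0039, adjusted p of 0.43). It was 0.9 within and 3.23 without the suffix b libraries. S100a8, the partner of S100a9 in the dimer, had medians of only 1.25 and 1.63. Median counts were lower at 20 M than at 14 M in Retnlg (0 against 0.647) and Mmp9 (16.4 against 26.3), and higher in the other tested members. The median change of the neutrophil list was 0.71 without the shallow libraries (0.28 for all genes).

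Cx3cr1, the fractalkine receptor of monocytes and interstitial macrophages (chr9:119901616-120069879), had 708, 1056 and 1732 counts at 14 M and 666, 2223 and 4931 at 20 M. At 20 M, 5 of 7 libraries lay above all at 14 M and 1 lay below all, with a change of 0.89 ± 0.29 (0.3 to 1.49, limma p of 0.0038). The change was 0.88 within and 1.06 without the suffix b libraries. Of 9 monocyte markers 2 were higher, among them the integrin Itgam (1.01 ± 0.38), with medians of 493 at 14 M and 1169 at 20 M. Mrc1, the macrophage mannose receptor (chr2:14229392-14332057), had 250, 298 and 637 counts at 14 M and 18.2, 275 and 394 at 20 M. Its change of -0.99 ± 0.36 came with 3 of 7 libraries below all at 14 M, and was -0.13 without the shallow libraries and -1.67 within and -0.01 without the suffix b ones. Csf1r, the receptor for macrophage colony-stimulating factor, had a change of -0.94 ± 0.44, but of 0.26 without the shallow libraries. Of 9 platelet markers 2 were listed as higher, among them Pf4, a platelet chemokine. The list median of 0.73 was 0.28 without the shallow libraries (0.28 for all genes). Within the suffix b libraries 0 of the 9 were higher and the median was 0.17 (0.32). Without them 3 were higher and the median was 0.9 (-0.32).

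The T cell, cytotoxic cell, plasma cell (0.21) and B cell (0.16) lists all had medians above 0, beside 0.08 for all genes. Changes lay above 0 in 13 of 19 T cell and 8 of 9 cytotoxic cell markers. The counts were 11 of 15 for plasma cells and 8 of 13 for B cells, against 56.1% of all genes. Prf1, the pore-forming perforin of cytotoxic lymphocytes (chr10:61297833-61304680), had 0, 0 and 17.1 counts at 14 M and 0, 43.8 and 200 at 20 M, and 5 of 7 libraries at 20 M lay above all at 14 M. Its change was 3.87 ± 0.99 (1.89 to 5.85), with a limma p of 0.00027 and an adjusted p of 0.26, and was 3.86 within the suffix b libraries, 3.63 without them and 3.98 without the shallow ones. The 9 cytotoxic cell markers had a median of 0.91, with Prf1 the only one listed. The summed cytotoxic markers were 16.3, 69.2 and 293 counts at 14 M and 196, 250 and 508 at 20 M. Of 19 T cell markers 1 was listed, Trbc2, a constant segment of the T-cell receptor beta chain (2.69 ± 1.06), and the median was 0.48. Without the shallow libraries 5 of 19 T cell markers were higher, against 883 of all 21257 genes, and the median was 0.76 beside 0.28. The T cell and cytotoxic medians were 0.83 and 1.24 within the suffix b libraries, beside 0.32 for all genes, and -0.26 and -0.28 without them, beside -0.32.

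Of 15 plasma cell and immunoglobulin constant region genes 3 were higher and 0 lower. Ighg1, the IgG1 heavy chain constant gene (chr12:113325240-113330523), had 0, 5.01 and 67.6 counts at 14 M and 2.27, 115 and 2433 at 20 M. In Ighg1 4 of 7 libraries at 20 M lay above all at 14 M and the other 3 within their range. Ighg3 had a change of 2.24 ± 1.1, and Ighm, the IgM constant gene, of 1.3 ± 0.62. Jchain, which links antibody polymers, had medians of 898 and 1764 and a change of 1.14 ± 0.62, which was not listed (limma p of 0.07). These genes belong to a multigene family whose reads can be split between near-identical members. None of 13 B cell markers was listed, with a median of 0.16.

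**Figure D3:**
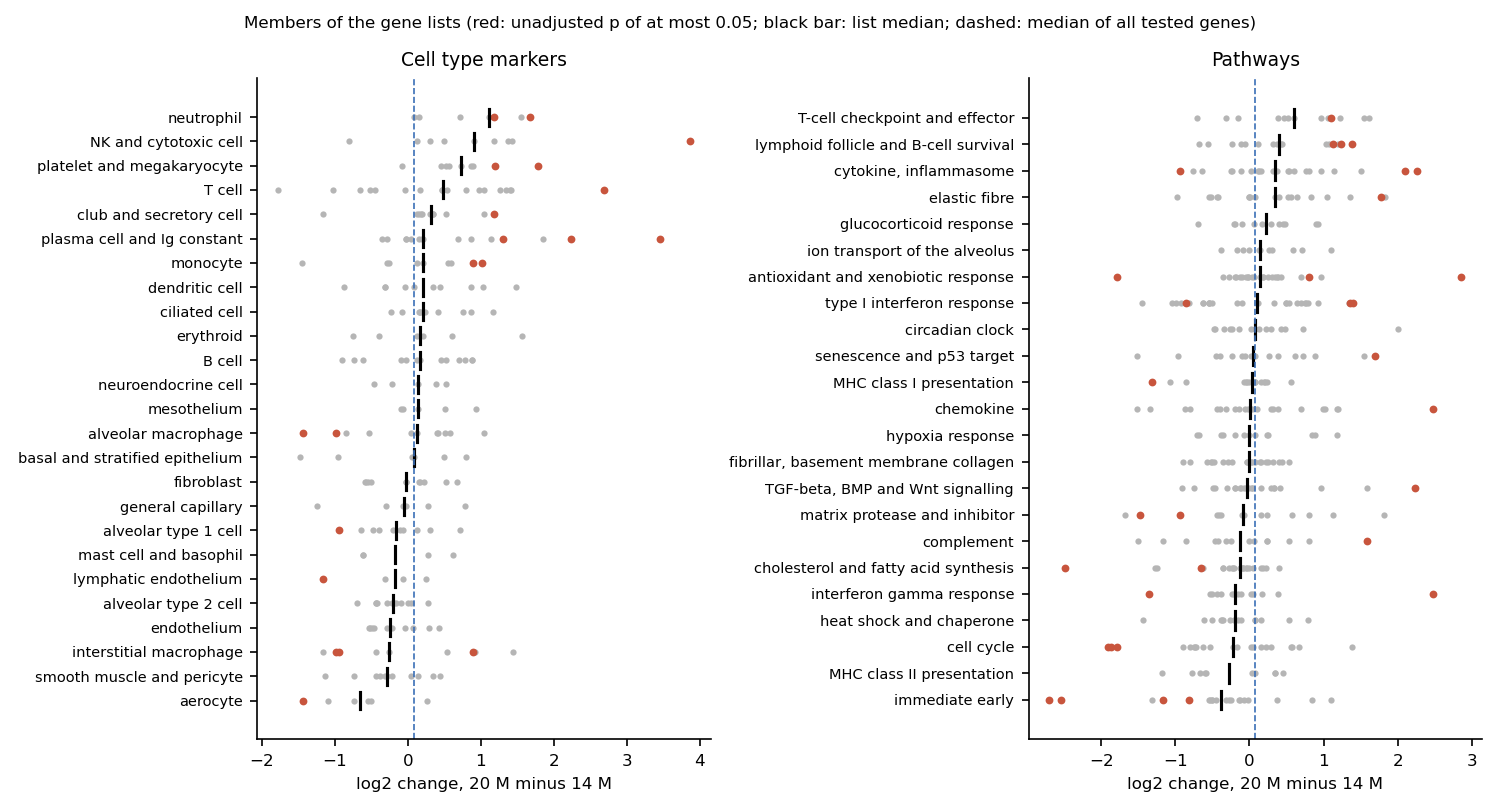
Log2 change (20 M minus 14 M) of each tested member of the cell type lists (left) and pathway lists (right), sorted by list median (black bar), with red points at an unadjusted p of at most 0.05 and a dashed line at the median of all tested genes (0.08). Neutrophil (1.11) and cytotoxic cell markers (0.91) lie at the top left and aerocyte markers (-0.65) at the bottom, and most lists hold 0 to 2 red points.

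Genes of lymphoid follicles and B-cell survival had 3 of 16 tested members higher and 0 lower, with a median of 0.4. Without the shallow libraries 0 of the 16 were higher, with a median of 0.6 beside 0.28 for all genes. Il7, the cytokine that sustains lymphocytes (chr3:7569994-7613760), had 146, 228 and 434 counts at 14 M and 187, 655 and 1507 at 20 M. At 20 M, 5 of 7 libraries exceeded all at 14 M, a change of 1.23 ± 0.4 (0.43 to 2.04, limma p of 0.0034). The change of Il7 was 1.13 within the suffix b libraries, 1.57 without them and 0.8 without the shallow ones. Tnfrsf13b, the TACI receptor of B and plasma cells, had a change of 1.13 ± 0.4, and Tnfsf11, the RANKL cytokine, of 1.39 ± 0.69. Of 13 T-cell checkpoint and effector genes 1 was higher. The median of that list, 0.6, was 1.2 within the suffix b libraries (0.32 for all genes) and -0.42 without them (-0.32).

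Cytokine, interferon and complement lists differed in direction. Changes lay above 0 in 16 of 22 inflammatory cytokine and inflammasome genes, with a median of 0.35. The counts were 11 of 22 for chemokines, 15 of 29 for type I interferon, 5 of 15 for interferon gamma and 6 of 14 for complement. The cytokine and inflammasome median was 0.45 within the suffix b libraries (0.32 for all genes) and 0.33 without them (-0.32). Of 22 chemokines 1 was higher, Cxcl9, the interferon-induced ligand of Cxcr3 (chr5:92321347-92328079), with 0, 53.8 and 187 counts at 14 M and 88, 143 and 2955 at 20 M. At 20 M, 3 of its 7 libraries lay above all at 14 M, and the chemokine median was 0.01. Of 22 inflammatory cytokine and inflammasome genes, Nlrp12, a nucleotide-binding receptor of myeloid cells, had medians of 71.9 and 147 (2.26 ± 0.7, limma p of 0.0021). Il10, an anti-inflammatory cytokine, was close to 0, with medians of 0 and 10.9 (2.1 ± 0.85). Il33, an alarmin of type 2 cells, was lower, with 262, 382 and 668 counts at 14 M and 84, 192 and 523 at 20 M. In Il33 4 of 7 libraries lay below all at 14 M, a change of -0.93 ± 0.3 that was -0.27 without the shallow libraries.

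Of 29 type I interferon response genes 2 were higher, the RNA sensor Ifih1 (1.36 ± 0.6) and Ifi44 (1.4 ± 0.68), and 1 was lower, the transcription factor Stat2 (-0.86 ± 0.32). Ifih1 was at -0.21 without the suffix b libraries and at -0.08 without the 7 marker-rich ones. The list median was 0.1, and without the suffix b libraries 0 of the 29 were higher and 3 lower. Of all 21257 genes, 346 were higher and 1262 lower in that setting. Of 15 interferon gamma response genes Cxcl9 was higher and the GTPase Irgm1 lower (-1.35 ± 0.59). None of 10 MHC class II genes was listed (median -0.28), and of 14 MHC class I genes H2-Q6, of a family of near-identical genes, was lower (-1.31 ± 0.55) but had a change of 0.02 without the shallow libraries. Of 14 complement genes C2 was higher (1.59 ± 0.67).

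A list of 25 genes held mostly genes that the study named for the lung. It also held Btk, as well as Cdkn1a and Cdkn2a, senescence markers that the study followed across organs. Of this list 7 were higher and 0 lower at an unadjusted p of at most 0.05, with a median of 0.6. Among those 7 were Nlrp12, Il7, Cx3cr1, Itgam and Cxcl9. Of the lymphocyte genes on it, the kinase Lck had medians of 173 and 286 counts at 14 and 20 M (0.54 ± 0.56), Ctla4, an inhibitory receptor of T cells, of 43.6 and 96.3 (1.22 ± 0.82) and Cd22, an inhibitory receptor of B cells, of 303 and 260 (-0.02 ± 0.43). The list also holds genes best known from liver and kidney, and Hao1, Cyp1a2, Cyp2a12 and Cyp2c54 each had their highest value at 14 M in c755 and at 20 M in c1315. Those 4 had changes of -0.68 ± 0.98, 0.02 ± 0.96, 0.64 ± 0.87 and -1.26 ± 0.92. The study chose most of this list on these samples, so it is not independent evidence of its direction. Without the shallow libraries 5 of the 25 were higher, and the median was 0.79 within and 0.73 without the suffix b libraries.

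Few senescence and matrix genes were listed over all libraries. Of 16 senescence and p53 target genes 1 was higher, the apoptosis effector Bbc3 (1.7 ± 0.65, but -0.08 without the suffix b libraries), with a list median of 0.05. Cdkn1a, the p21 cell cycle inhibitor, had 0, 214 and 300 counts at 14 M and 40.9, 150 and 457 at 20 M (0.72 ± 0.68, limma p of 0.3), and its median was lower while its fitted change was above 0. Without the shallow libraries the change of Cdkn1a was -0.09. Cdkn2a, the p16 and p19ARF locus, had medians of 1.25 and 13.1 (0.61 ± 1.12, limma p of 0.59), and its change was -0.34 without the suffix b libraries. Of 99 tested genes of the SenMyo module, a published senescence list, 3 were higher and 5 lower, with a median of -0.02. Of 22 collagens 0 were listed (median -0.01), but without the suffix b libraries 5 were lower and 0 higher, with a median of -0.73 beside -0.32 for all genes. In that setting 1262 of all 21257 genes were lower. Of 19 elastic fiber genes Mfap5, a microfibril protein, was higher (1.78 ± 0.86, but -0.69 without the suffix b libraries), and of 14 matrix proteases and inhibitors Adamts15 (-0.94 ± 0.31) and Adamts1 (-1.47 ± 0.65) were lower. Of 22 TGF-beta, BMP and Wnt genes the Wnt amplifier Lgr5 was higher (2.23 ± 0.82).

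Immediate early genes had the lowest pathway median, -0.38, with 4 of 20 lower and 0 higher. Egr1, a transcription factor induced within minutes of a stimulus, had 807, 1200 and 3038 counts at 14 M and 517, 779 and 1481 at 20 M. In Egr1 4 of 7 libraries lay below all at 14 M, a change of -0.82 ± 0.35 that was -0.97 without the shallow libraries, -0.71 within the suffix b libraries and -1.17 without them. Egr3 had medians of 9.32 and 0 (-2.7 ± 0.9), and Nr4a1 of 268 and 145 (-1.17 ± 0.54, with 5 of 7 libraries below all at 14 M). The fourth was Ier3, given above. Without the shallow libraries 2 of the 20 were lower, against 193 of all 21257 genes, and the median was -0.52.

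Of 21 cell cycle genes 3 were lower and 0 higher, the proliferation marker Mki67 (-1.87 ± 0.76), the spindle protein Nusap1 (-1.78 ± 0.72) and the thymidine kinase Tk1 (-1.91 ± 0.92). Mki67 had 7.77, 72.5 and 268 counts at 14 M and 0, 26.1 and 144 at 20 M, and 3 of 7 libraries lay below all at 14 M. Without the shallow libraries 0 of the 21 were lower, where only 193 of all 21257 genes were. The list median there was 0.48 against -0.22 over all libraries. The changes were -0.32 for Mki67, 0.12 for Nusap1 and 0.06 for Tk1. Of 23 cholesterol and fatty acid synthesis genes Elovl1, a fatty acid elongase (-2.49 ± 0.88), and Dhcr7, the last enzyme of cholesterol synthesis (-0.65 ± 0.32), were lower. Without the shallow libraries the change was -0.13 for Elovl1 and -0.68 for Dhcr7. Of 25 antioxidant and xenobiotic genes 2 were higher, among them Cyp1a1, the aryl hydrocarbon receptor target (2.86 ± 1.05), and the glutathione transferase Gsta3 was lower (-1.79 ± 0.71). Cyp1a1 had a change of 4.16 within the suffix b libraries and of 0.36 without them. Of 15 circadian clock genes and 16 heat shock genes 0 were listed.

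Across the 6 ages the immune genes followed different courses. Prf1 medians were 13, 3.5, 10 and 0 at 3, 5, 8 and 14 M, and 43.8 and 49 at 20 and 26 M. Ighg1 medians were 4.9, 39.1, 22.2 and 5.01, and then 115 and 90.1. S100a9 had a median of 2563 at 20 M and of 488 at 26 M, where 1 library reached 7092. Medians at 20 and 26 M were 655 and 240 for Il7 and 2223 and 1443 for Cx3cr1. Il33 medians were 337 to 401 from 3 to 14 M, 192 at 20 M and 288 at 26 M. The changes between 20 and 26 M were not tested. The suffix b was rarer at the other ages than at 14 and 20 M, so age and suffix are partly confounded in these courses.

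**Figure D4:**
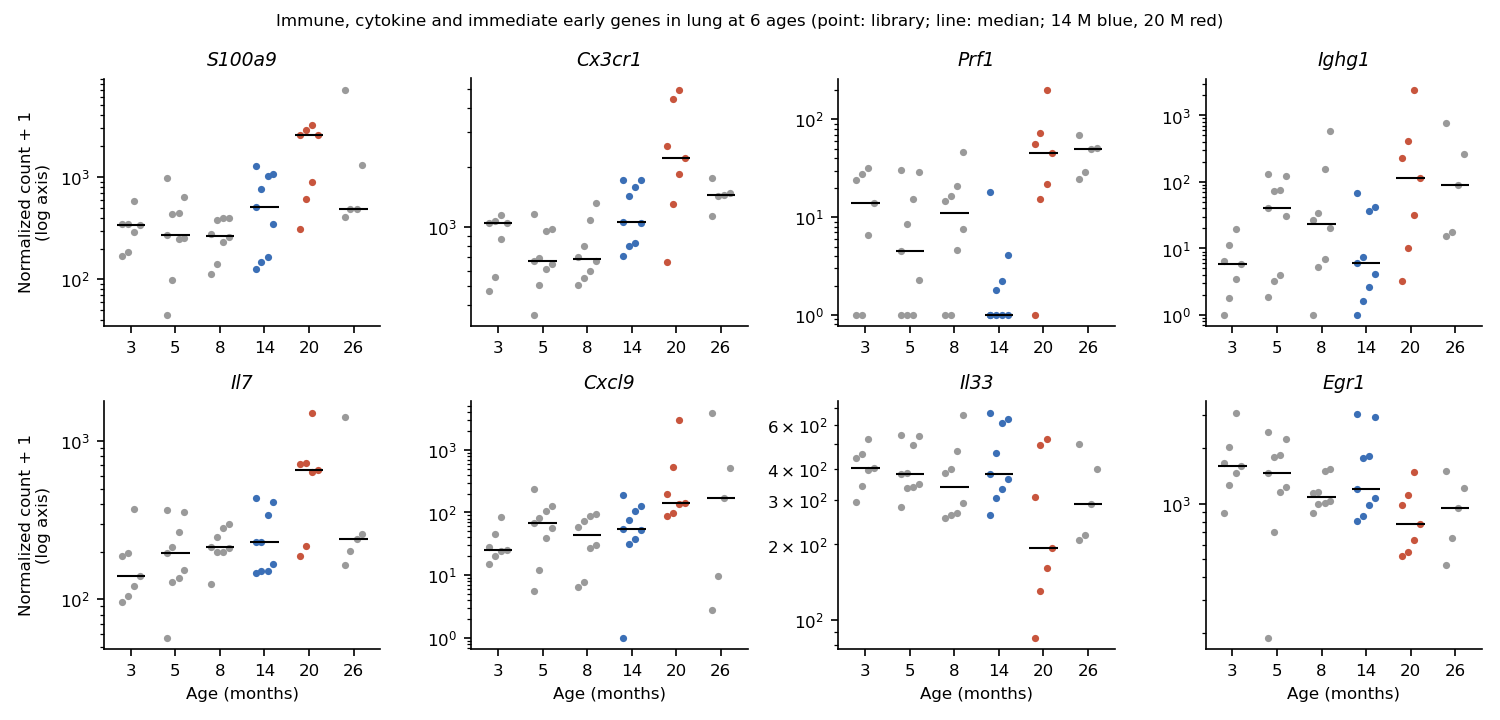
Normalized count plus 1 (log axis) in each of the 45 lung libraries against age in months, with 14 M in blue, 20 M in red, other ages in gray and a line at the median. Prf1 and Ighg1 have medians of 43.8 and 115 at 20 M and of 49 and 90.1 at 26 M, and S100a9 and Il7 have lower medians at 26 M (488 and 240) than at 20 M (2563 and 655).

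The kidneys of the same mice allowed a direct test of whether the step from 14 to 20 M differed between organs. Of 16297 genes tested in both organs, limma with the mouse as a block called 409 (2.51%) at an adjusted p of at most 0.05, 303 (1.86%) with a lung change below the kidney change and 106 (0.65%) with a lung change above it. Among the 303, the kidney change was above 0 in 294 and the lung change below 0 in 235. Among the 106, the kidney change was below 0 in all 106 and the lung change above 0 in 101. A kidney change of at least 1 in size was present in 286 of the 409. In 196 (47.9%) the lung change was under 0.5 in size, against 59.7% of all genes tested. Choosing genes by the difference favors opposite signs and large changes, so nothing is read from the sign counts or from the 286. Residual spread was larger in lung (median SD of 1.14) than in kidney (0.51). This fit, which pools the spread of both organs, by itself called 366 lung genes, against 0 in the fit of lung alone. A test of the difference within each mouse, added after seeing the data, called 316.

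All but 1 of the 10 genes of smallest p had a lung change below the kidney change. Mrc1 had log2 changes of -0.99 in lung and 2.67 in kidney, a difference of -3.66 ± 0.42 (limma adjusted p of 2.5e-09). Vcam1, the leukocyte adhesion molecule, had changes of -0.44 and 3.01 (difference -3.45 ± 0.46), and the ferroxidase Cp of -0.03 and 2.73 (-2.76 ± 0.38). Lbp, which binds bacterial lipopolysaccharide, had changes of -0.74 and 2, and the transcription factor Runx1 of 0.18 and 2.79. Col1a2, the partner chain of type I collagen, had changes of -0.57 and 2.11, and Dcdc2a, Nfkbiz and Mrc2 also lay below 0 in the difference, at -2.59, -2.19 and -2.25. Eps8 was the 1 above 0, with changes of 0.88 in lung and -0.81 in kidney (1.68 ± 0.24, adjusted p of 8.6e-07 by limma).

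Further genes were chosen after their values were seen. The complement component C3 had changes of 0.06 in lung and 3.61 in kidney (-3.56 ± 0.62), lysozyme Lyz2 of -0.03 and 3.49 (-3.53 ± 0.62), and Col1a1 of -0.5 and 2.62 (-3.12 ± 0.53). Zmynd12 had changes of 1.48 and -0.31 (1.79 ± 0.4, limma adjusted p of 0.0041). Il7 had changes of 1.23 in lung and 1.26 in kidney, with a difference of -0.03 ± 0.56. Of 19 chemokines 3 were called below 0, with medians of 0.04 in lung and 2.72 in kidney, and of 14 complement genes 5, with medians of -0.13 and 1.74. Of 10 MHC class II genes 4 were called (medians of -0.28 and 1.86). H2-Aa, of the same class, had changes of 0.35 and 1.67 and was not called (limma adjusted p of 0.32).

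**Figure D5:**
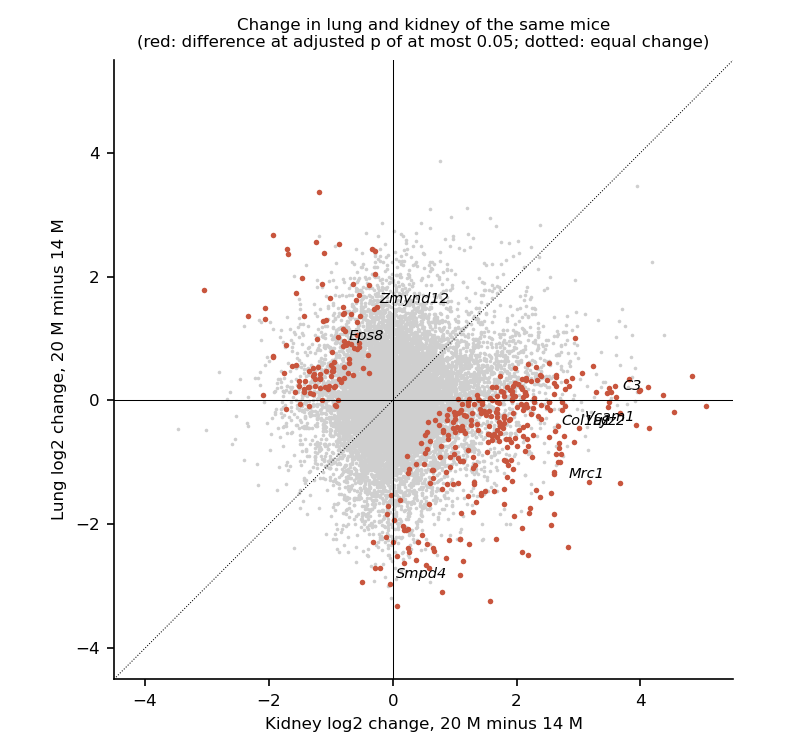
Each point is 1 of 16297 genes, with its log2 change from 14 to 20 M in kidney (horizontal) and lung (vertical), red where the difference between organs had an adjusted p of at most 0.05. Of the 409 red points 303 lie under the dotted line of equal change, C3 among them (3.61 in kidney, 0.06 in lung), and 106 lie over it, Zmynd12 and Eps8 among them.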

How the data were processed

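Gene expression was measured in lung and kidney libraries of male mice. The authors trimmed the reads, aligned them to GRCm38 with HISAT2 2.1.0 and counted them per gene with GenomicAlignments. Each deposited value is a signal rather than a raw count, since the authors scaled every library by its DESeq2 size factor, separately in each organ. Reads were single and carried no molecular identifiers, so PCR copies counted as reads and counting error is understated. For the count tests whole reads were recovered by dividing each lung library by its smallest value above 0, which gave whole numbers within 0.01 for 100% of the values in each library (edgeR then called 1 gene and DESeq2 20).

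limma 3.58.1 with a trended prior was fitted in R 4.3.3 to log2(value + 1) of all 45 lung libraries, with Benjamini-Hochberg adjustment at 0.05 and two-sided tests. The pseudocount understates changes of low genes. edgeR 4.0.16 and DESeq2 1.42.0 were alternatives, beside other pseudocounts, filters, scalings, covariates and sets of libraries. The kidney comparison used the mouse as a block, since both organs came from the same mice (consensus correlation of -0.033). Each library was 1 mouse, and no 2 lung libraries were duplicates (lowest chi-square per degree of freedom 13.1, against 1 for sampling noise).

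The genes named were the 10 of smallest p, the largest changes with a mean of at least 50 counts, genes called by a count test, the list members of smallest p, the genes the study named and identity markers. Predicted genes and variable receptor segments were skipped for the 10 genes and for the largest changes. Age groups came from the labels. Members, gene lists and comparisons were chosen with earlier results of these data known. Coordinates came from a GRCm38 annotation. Steps were tested on simulated data. Some genes that met these rules are not reported here.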

Additional observations from a re-analysis of the deposited data

Results flagged for a closer look

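In 246 groups of 7 or 9 lung libraries, 31 held a library far from the rest (Dixon's criterion at 95%, which chance meets in about 1 in 20 groups). The number of genes above 0 was far above the rest in 14M c3840 (25930) and in 20M c1315 (26588). The library 14M c3840 was also highest in Olfr1272 (26.8), Gm47923 (60.9), Gm6667 (29.8) and Prf1 (17.1), and 20M c1315 in Gm47923 (79.4), Gm6667 (129) and Egr3 (2.98). In 20M c1315 the summed type 1 cell markers were lowest (8191). In 20M c3580 cardiomyocyte markers (72008), Myh6 (21552), Tnni3 (11705) and Akap5 (1242) were highest, and dendritic cell (754) and T cell markers (674) were lowest. Other summed markers far from the rest were lymphatic endothelium in 14M c636 (483), cytotoxic cells in 20M c3055 (508) and adipocytes in 20M c1300 (26.1).

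Single genes lay far from the rest in other libraries. Gm5605 (3.74) in 14M c755 and Ager (3399) in 14M c568 were high. Values of 0 were found for Ankrd63, Cxcl9 and C2 in 14M c2600, for Pf4, Ifih1 and Cdkn1a in 14M c847, for Nlrp12 in 14M c2626 and for Ptges3-ps in 20M c2140. Tnfsf11 (1.25) in 14M c636 and Mrc1 (18.2) in 20M c2140 were low.

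Of 75 genes named for lung and tested in both organs, 20 differed between lung and kidney at a limma adjusted p of at most 0.05, beside 2.51% of all genes tested. Many of the 75 were picked by their lung values, which enter the difference, so nothing is read from this count. The lung minus kidney log2 change was above 0 in Mep1b (4.62), Zmynd12 (1.79) and Eps8 (1.68). It was below 0 in Dio2 (-4.81), Crybb3 (-3.9), Mki67 (-3.82), Mrc1 (-3.66), Ier3 (-3.4), Col1a1 (-3.12), Adamts1 (-2.97), Smpd4 (-2.92), Wdcp (-2.81), Ptges3-ps (-2.49), Elmod3 (-2.45), Irgm1 (-2.22), Cnnm3 (-2.1), Il33 (-1.98), Pcnx3 (-1.98), Itgam (-1.94) and Stat2 (-1.86). Genes picked for this difference itself were C3 (-3.56), Lyz2 (-3.53), Vcam1 (-3.45), Cp (-2.76), Lbp (-2.74), Col1a2 (-2.68), Runx1 (-2.61), Dcdc2a (-2.59), Mrc2 (-2.25) and Nfkbiz (-2.19).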

How the results depend on the processing

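The count of 0 called genes held in 27 of 35 alternatives. It became 2 with 2 sets of mice as a batch term, 1 with log2 reads as a covariate and 1 with edgeR. The 2 sets were made here by the sign of the first principal component of the heart libraries, and the labels do not name them. The count was 12 with 2 components of the foreign-tissue markers as covariates and 20 with DESeq2. Without the 2 libraries with over 25000 genes above 0 it was 11. Leaving out 1 library at a time gave 0 to 11 (11 without 20M c1315 and 9 without 20M c3055). In these settings 34 genes were called at least once, Zmynd12 in 7 of 8. Genes listed as higher (658) numbered 339 in the 16 libraries alone, 346 without the suffix b libraries, 1159 in those alone, 1018 with log2 reads, 1643 with the foreign-tissue components, 285 without the 7 libraries rich in hepatocyte or cardiomyocyte markers, and 562 to 1060 with 1 library left out (1060 without 14M c3840). Genes listed as lower (745) numbered 287 in the 16 alone, 491 with sample quality weights, 1262 without the suffix b libraries, 265 in those alone, 309 without the 7 libraries, 193 without the 4 under 5000000 reads, and 543 to 1172 with 1 left out (1172 without 20M c1315). The cause of these shifts was not tested. The 4 alternatives that drop the broad, marker-rich or shallow libraries or keep the suffix b libraries alone were chosen after seeing the data.

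The 409 genes of the difference between organs became 474 without the mouse as a block, 135 in the 32 libraries of 14 and 20 M alone (106 below and 29 above 0), and 198 (without c3580) to 819 (without c3055) with 1 mouse left out, of which 141 to 594 lay below and 57 to 225 above 0. Those above 0 numbered 63 without c1300, 160 with the suffix as a batch term and 69 in the test within each mouse.

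Of 85 named genes, 14 changed sign under an alternative. Without the suffix b libraries, changes were -0.65 for Olfr1272, -1.18 for Gm47923, -1.29 for Gm6667, -0.21 for Ifih1, -0.08 for Bbc3, -0.34 for Cdkn2a and -0.69 for Mfap5. Without the 7 marker-rich libraries they were -0.18 for Gm47923, -0.47 for Gm6667, -0.22 for Tnni3, -0.64 for Foxj1, 0.26 for Csf1r, -0.08 for Ifih1, -0.08 for Cdkn1a and 0.42 for Tk1. Without the 4 shallow libraries they were -0.16 for Tnni3, 0.26 for Csf1r, 0.02 for H2-Q6, -0.09 for Cdkn1a, 0.12 for Nusap1 and 0.06 for Tk1. With 1 library left out, changes were -0.03 (without 20M c1315) to 1.45 for Gm47923, -0.37 (without 20M c1315) to 1.16 for Gm6667 and -0.13 (without 14M c847) to 1.06 for Cdkn1a.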

Other observations

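Lists not described above held few genes with an unadjusted p of at most 0.05. None was found among 10 dendritic cell markers (median change 0.21), 6 general capillary markers (-0.05), 11 smooth muscle and pericyte markers (-0.28), 5 mesothelial markers (0.14), 12 glucocorticoid response genes (0.23), 13 hypoxia response genes (-0.01) and 11 alveolar ion transport genes (0.14). Of the markers of other organs, 16 for hepatocytes had a median of 0.04, 12 for kidney tubule 0 and 11 for brain -0.25, with none listed, and 2 of 12 for cardiomyocytes were higher (0.74).

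The predicted gene Gm29082 had 0, 1.25 and 4.87 normalized counts at 14 M and 2.34, 13.6 and 266 at 20 M, and 6 of 7 libraries at 20 M lay above all at 14 M. Its change of 3.08 ± 0.75 had a limma adjusted p of 0.25 and a DESeq2 adjusted p of 0.028, and it was 3 within the suffix b libraries and 3.02 without them. Exoc3l had 0, 8.53 and 144 counts at 14 M and 0, 0 and 2.27 at 20 M, with a limma change of -2.54 ± 0.89, -1.45 within and -4.41 without the suffix b libraries.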
